A study of Homo sapiens with 30 samples.

Results

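ANGPTL4 encodes a secreted protein that blocks lipoprotein lipase, and it is one of the best known targets of the peroxisome proliferator-activated receptors, the PPARs. Its transcript was followed here with those of 8 further genes of the same pathway in 30 one-colour arrays of BEAS-2B cells, an immortalised line of human bronchial epithelium grown at the air-liquid interface. The 9 genes were taken by their names in the array files out of 43966 gene names, and they had 15 probes, of which 14 were bright enough to test. ANGPTL4 itself was chosen by its own difference between pollen and mock at 2h25min and 6h50min, so its values are described and carry no test. PPARD was also singled out earlier from these same arrays at 6h50min, and its value there is no independent evidence of a direction.

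The cells had been given either a pollen exposure, with 10 mg of whole birch pollen dispersed into the dosing chamber, or a mock exposure. The labels call the mock exposure air, and in it a fine mesh kept the pollen from the cells. The 10 mg is the amount loaded, of which only a part settled on the cells. The cells were harvested 10 min, 55 min, 2h25min, 6h50min or 24 h after exposure, with 3 arrays for each exposure and time, so that 5 pollen groups stood against 5 mock groups. All groups shared the same line, the same air-lifted culture and the same system of dosing. Being a line of immortalised cells from 1 origin, it stands for bronchial epithelium only in part. The 6 epithelial markers (KRT7, KRT8, KRT18, KRT19, EPCAM and CDH1) were well above background on all 30 arrays, as was VIM, a mesenchymal filament, while the fat cell genes ADIPOQ and FABP4, the liver gene ALB, the B-cell gene MS4A1 and the endothelial gene PECAM1 were above background on 0 arrays. Other genes of these marker lists were read, with CIDEC (fat), APOA1 (liver), CDH5 (endothelium), PTPRC and CD14 (leukocytes) above background on all 30 arrays, VWF on 28, CD3E on 17 and PLIN1 on 16.

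PPARs are nuclear receptors that bind fatty acids, pair with a retinoid X receptor and sit on direct repeats of a short DNA motif. PPARA governs fatty acid oxidation in liver and muscle, PPARD is the form found most widely across tissues, and PPARG drives fat storage. Their usual targets include PDK4, a kinase that shuts off pyruvate dehydrogenase, PLIN2, a coat protein of lipid droplets, CPT1A, the gate of fatty acid entry into mitochondria, and ACADVL and HADHA, which carry out steps of mitochondrial fatty acid oxidation. FABP5 is a carrier that brings fatty acids to PPARD. ANGPTL4 also responds to low oxygen, glucocorticoids and TGF-beta in many cell types.

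The promoters of ANGPTL4, PDK4 and PLIN2 are shown because these 3 genes are the reporters of PPAR activity most often read in cell culture. Each window holds the 250 bases before the transcription start, 5′ to 3′ on the strand of the gene, from RefSeq on GRCh38.p14. Capitals mark ACGTG, the core of the hypoxia response element, and TATAAA, the TATA box, on either strand. The windows lie at chr19:8363905-8364154 on the plus strand for ANGPTL4, at chr7:95596517-95596766 on the minus strand for PDK4 and at chr9:19127493-19127742 on the minus strand for PLIN2.
ANGPTL4: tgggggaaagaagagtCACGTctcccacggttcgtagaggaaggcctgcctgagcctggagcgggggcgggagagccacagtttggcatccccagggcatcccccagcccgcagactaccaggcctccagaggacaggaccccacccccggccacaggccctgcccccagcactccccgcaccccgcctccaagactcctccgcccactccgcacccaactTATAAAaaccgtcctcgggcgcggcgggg
PDK4: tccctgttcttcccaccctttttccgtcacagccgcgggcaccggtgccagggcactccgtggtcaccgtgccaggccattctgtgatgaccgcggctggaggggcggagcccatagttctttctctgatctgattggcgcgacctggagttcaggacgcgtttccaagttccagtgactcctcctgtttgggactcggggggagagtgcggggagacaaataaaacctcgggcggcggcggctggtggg
PLIN2: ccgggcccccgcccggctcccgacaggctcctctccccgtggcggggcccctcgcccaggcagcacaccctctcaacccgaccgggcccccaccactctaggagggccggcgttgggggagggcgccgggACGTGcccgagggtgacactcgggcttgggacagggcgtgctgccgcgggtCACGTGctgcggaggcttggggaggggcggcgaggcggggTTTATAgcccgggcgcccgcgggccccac

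Of the 9 genes, 8 matched an entry of the promoter table. None of their windows held AGGTCA, the hexamer that PPAR elements repeat, which 12.1% of all 35116 windows held on either strand, nor AGGTCANAGGTCA, the full direct repeat, which 0.0171% held. ANGPTL4 had 1 ACGTG on the minus strand, 234 to 230 bases before the start, and a TATAAA 29 to 24 bases before it. PLIN2 had 3 matches of ACGTG, of which those 69 to 65 bases on the minus strand and 68 to 64 bases on the plus strand overlap, and a TATAAA on the minus strand. ACGTG was in 18.5% and TATAAA in 10.7% of all windows. PDK4 had none of these motifs in its window. These are matches of letters in short windows only. The element through which PPARs are known to act on ANGPTL4 lies in an intron, outside the window shown.

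Levels are given throughout as log2 of the processed signal of a probe over the 75th percentile of its array, so a level of 0 is as bright as that percentile and a step of 1 is a doubling. Levels of different probes are not compared with each other. A probe was called when limma gave an adjusted p under 0.05 and the groups differed by at least 1.1-fold. In bulk samples a change in the mix of cell states and a change of RNA per cell cannot be told apart.

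ANGPTL4 (probe A_33_P3295358, hg19 chr19:8439197-8439256) was higher after pollen at 2h25min and 6h50min, and it moved with time in mock cells as well. After 10 min the mock arrays read −0.12, −0.84 and 0.28, and the pollen arrays −0.38, −0.74 and 0.14, so the groups covered the same range. After 55 min mock read 1.19, 1.25 and 0.64, and pollen 2.00, 1.50 and 0.81, with the groups still overlapping. After 2h25min mock read 0.97, 1.44 and 0.75, and pollen 2.87, 3.80 and 2.42. All pollen arrays lay above all mock arrays at that time, with the pollen array of replicate 2 the highest of the 30.

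After 6h50min ANGPTL4 in mock had come down to −0.46, −0.25 and −0.31, and in pollen it read 1.34, 1.78 and 1.82. Again no array of one group reached the other. After 24 h mock read −0.72, −1.04 and −0.90, and pollen −0.56, −0.32 and 0.22, so that the pollen arrays were back near the level of the first time but still above each mock array. The 3 replicates agreed best at 6h50min, where the SD was 0.11 in mock and 0.26 in pollen, and least in pollen at 2h25min, where it was 0.70.

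**Figure D1:**
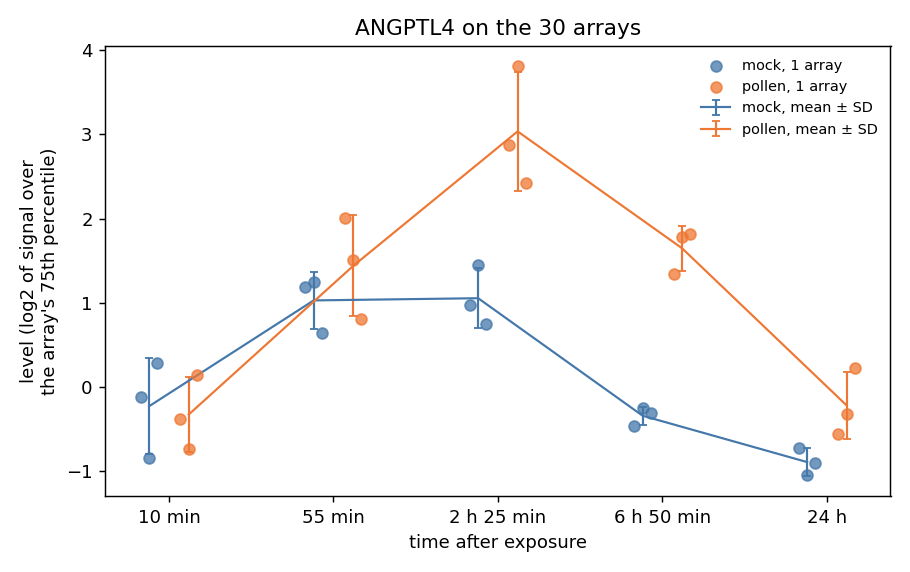
Level of ANGPTL4 on each of the 30 arrays (y axis, log2 of signal over the array's 75th percentile) against time after exposure (x axis, 5 times in order, not to scale), with mock and pollen in different colours, 1 point per array, lines through the means of 3 and bars of ± 1 SD. The pollen mean reached 3.03 at 2h25min against 1.05 in mock, and 1.65 against −0.34 at 6h50min.

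The difference between the means of pollen and mock was −0.10 at 10 min, 0.41 at 55 min, 1.98 at 2h25min, 1.99 at 6h50min and 0.67 at 24 h (log2, n = 3 per group). On a linear scale the pollen arrays were 3.94-fold higher at 2h25min and 3.96-fold higher at 6h50min. Both differences were nearly equal in size although they stood on different levels, because from 2h25min to 6h50min the mean fell by 1.39 in mock and by 1.39 in pollen. At 2h25min the arrays lay on 2 slides, and the difference was 2.13 on the slide with 2 arrays per group and 1.68 on the slide with 1 per group. With normexp background correction and quantile normalization the difference at 6h50min came down to 1.67.

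In mock cells the mean level of ANGPTL4 was −0.23 ± 0.57 (SD, n = 3) at 10 min and 1.03 ± 0.33 at 55 min, a step of 1.25 with no overlap of the arrays, so the gene was higher early in the experiment without any pollen. From 55 min to 2h25min the mock mean stayed at 1.05 ± 0.36, while the pollen mean went from 1.44 ± 0.60 to 3.03 ± 0.70. Among the arrays of 55 min and 2h25min that shared a slide, 2 per group, this step was 0.26 in mock and 2.18 in pollen. From 2h25min to 24 h the mean fell by 1.94 in mock and fell by 3.25 in pollen. On the slide that held all arrays of 24 h and 1 array per group of 2h25min these values were −1.63 and −2.64. All 6 arrays of 6h50min lay on a slide of their own, so for that time a step against any other time and the slide cannot be told apart.

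Ordered by its mean, ANGPTL4 was lowest in mock at 24 h (−0.89 ± 0.16). Next came mock at 6h50min, pollen at 10 min, mock at 10 min and pollen at 24 h, whose means lay between −0.34 and −0.22 and whose neighbours differed by less than the larger SD of each pair. A gap of 1.25 separated them from mock at 55 min, mock at 2h25min, pollen at 55 min and pollen at 6h50min, which again differed from their neighbours by less than their spread. Pollen at 2h25min stood 1.39 above pollen at 6h50min.

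Among the 8 other genes, 0 were called between pollen and mock at any of the 5 times. In all 32099 probes tested, the share called was 0% at 10 min, 0.00312% at 55 min, 0.0343% at 2h25min, 0.0436% at 6h50min and 0.00312% at 24 h, so 0 of 8 is no different from this background. At an unadjusted p under 0.05, 0, 0, 1, 3 and 0 of the 8 passed at the 5 times in order, against 1.83%, 5.08%, 2.98%, 7.44% and 3.61% of all probes. The median difference of the 8 genes was −0.01, −0.02, 0.05, 0.26 and 0.06, and that of all probes lay between −0.03 and 0.01. The time with the widest shift was therefore 6h50min, when 7 of the 8 stood above zero, against 48.9% of all genes. The values at 6h50min include PPARD, which had been singled out at that time.

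Counted by overlap, 1 of the 8 genes had separate groups at 10 min, 0 at 55 min, 0 at 2h25min, 4 at 6h50min and 0 at 24 h. Of all probes tested, 5.83% had separate groups at 10 min, 10.8% at 55 min, 6.97% at 2h25min, 11.7% at 6h50min and 8.8% at 24 h. The 4 genes at 6h50min were PDK4, PLIN2, CPT1A and PPARD, and in each the pollen arrays were the higher. As PPARD had been singled out at that time, its part in the counts at 6h50min is no independent evidence. With normexp, quantile normalization and the replicate number as a block, a setting added after the data were seen, 3 of the 8 passed at 6h50min (CPT1A, PPARD and, downward, PPARA), when 1185 probes passed in all.

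**Figure D2:**
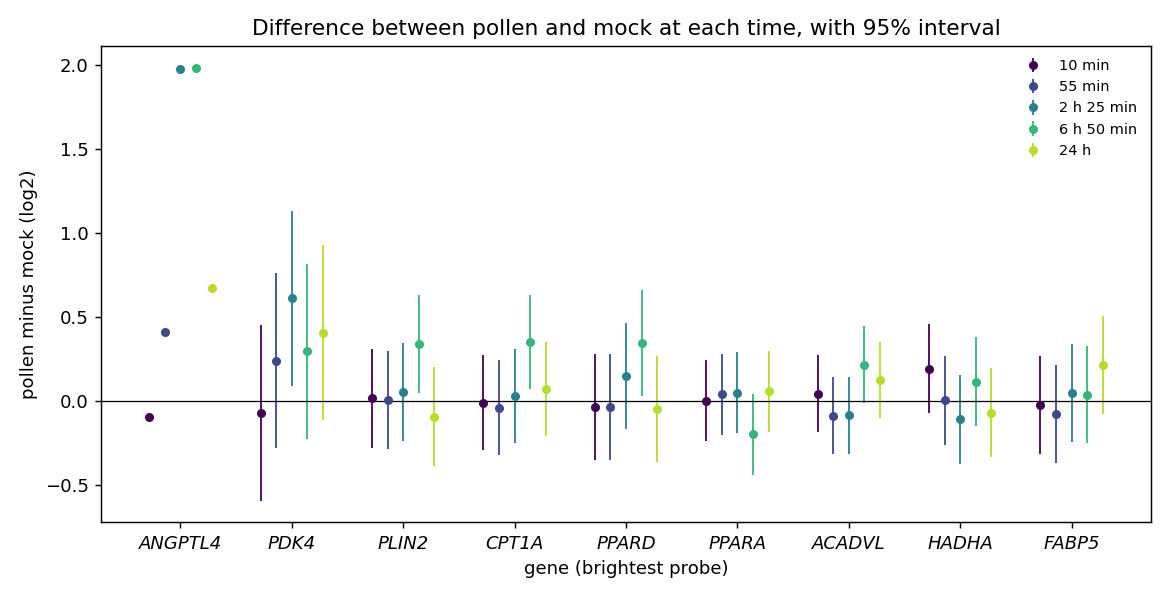
Difference between pollen and mock (y axis, log2) for the brightest probe of each of the 9 genes (x axis) at the 5 times, 1 colour per time, with the 95% interval of the limma fit as bars except for ANGPTL4, which was chosen by these values. ANGPTL4 stands at 1.98 and 1.99 at 2h25min and 6h50min, and the other genes lie between −0.20 and 0.61.

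PDK4 (hg19 chr7:95213307-95213366) came nearest to ANGPTL4 at 2h25min. Its mock arrays read −2.55, −1.95 and −2.57 and its pollen arrays −1.63, −1.48 and −2.13. Pollen was higher in 3 of 3 replicate numbers, but the lowest pollen array lay below the highest mock array. The difference was 0.61 ± 0.25 (SE, limma adjusted p = 1). It was 0.70 on the slide with 2 arrays per group and 0.44 on the other.

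At 6h50min PDK4 read −2.54, −2.31 and −2.48 in mock and −2.24, −2.16 and −2.06 in pollen. The groups were separate, by a difference of 0.29 ± 0.25 that did not pass (adjusted p = 0.938). At 24 h it read −3.60, −3.25 and −3.00 in mock and −3.16, −2.84 and −2.63 in pollen, a difference of 0.41 (adjusted p = 1). At 55 min 1 pollen array, at −1.12, stood above all others of that gene, and the other two read −2.07 and −2.05 against mock arrays of −1.68, −1.81 and −2.46.

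PLIN2 was read by 2 usable probes, and a further one was above background on 0 arrays. On the brighter probe (hg19 chr9:19116370-19116429) mock read 1.31, 1.08 and 1.08 at 6h50min and pollen 1.59, 1.35 and 1.54. All pollen arrays were the higher, by 0.34 ± 0.14 (adjusted p = 0.554), and with normexp and quantile normalization by 0.17. At the other 4 times the difference on this probe lay between −0.09 and 0.05.

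The dimmer probe of PLIN2 (hg19 chr9:19123403-19123462) gave a larger value at the same time. It read −2.19, −2.69 and −2.82 in mock and −1.16, −1.86 and −1.19 in pollen at 6h50min, with separate groups and a difference of 1.17 ± 0.34, which did not pass over all probes (adjusted p = 0.215). Its differences at 55 min and 2h25min were 0.28 and 0.42, with overlapping groups. Both probes thus stood higher in pollen at 6h50min but by unequal amounts. No annotation of hg19 was used here to place them in exons.

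CPT1A (hg19 chr11:68527063-68527122) read 0.28, 0.20 and 0.16 in mock at 6h50min and 0.54, 0.70 and 0.46 in pollen. These groups were separate and differed by 0.35 ± 0.14 (adjusted p = 0.46). At the other 4 times its difference lay between −0.04 and 0.07, and at 2h25min the arrays of both groups ran from about the same low to the same high (0.84, 0.72 and 0.21 in mock, 0.75, 0.73 and 0.38 in pollen). The 95% interval of its difference at 2h25min was −0.25 to 0.31.

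ACADVL, the first dehydrogenase of long-chain fatty acid oxidation (hg19 chr17:7128439-7128498), differed by −0.09 at 55 min, −0.09 at 2h25min and 0.22 at 6h50min (adjusted p = 0.713). HADHA, a subunit of the mitochondrial trifunctional protein (hg19 chr2:26415197-26415256), had separate groups at 10 min, with 1.38, 1.38 and 1.39 in mock and 1.57, 1.66 and 1.50 in pollen. That difference of 0.19 ± 0.13 did not pass (adjusted p = 1), and at the later times HADHA differed by −0.11 to 0.11. Neither enzyme had separate groups at 2h25min, 6h50min or 24 h.

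**Figure D3:**
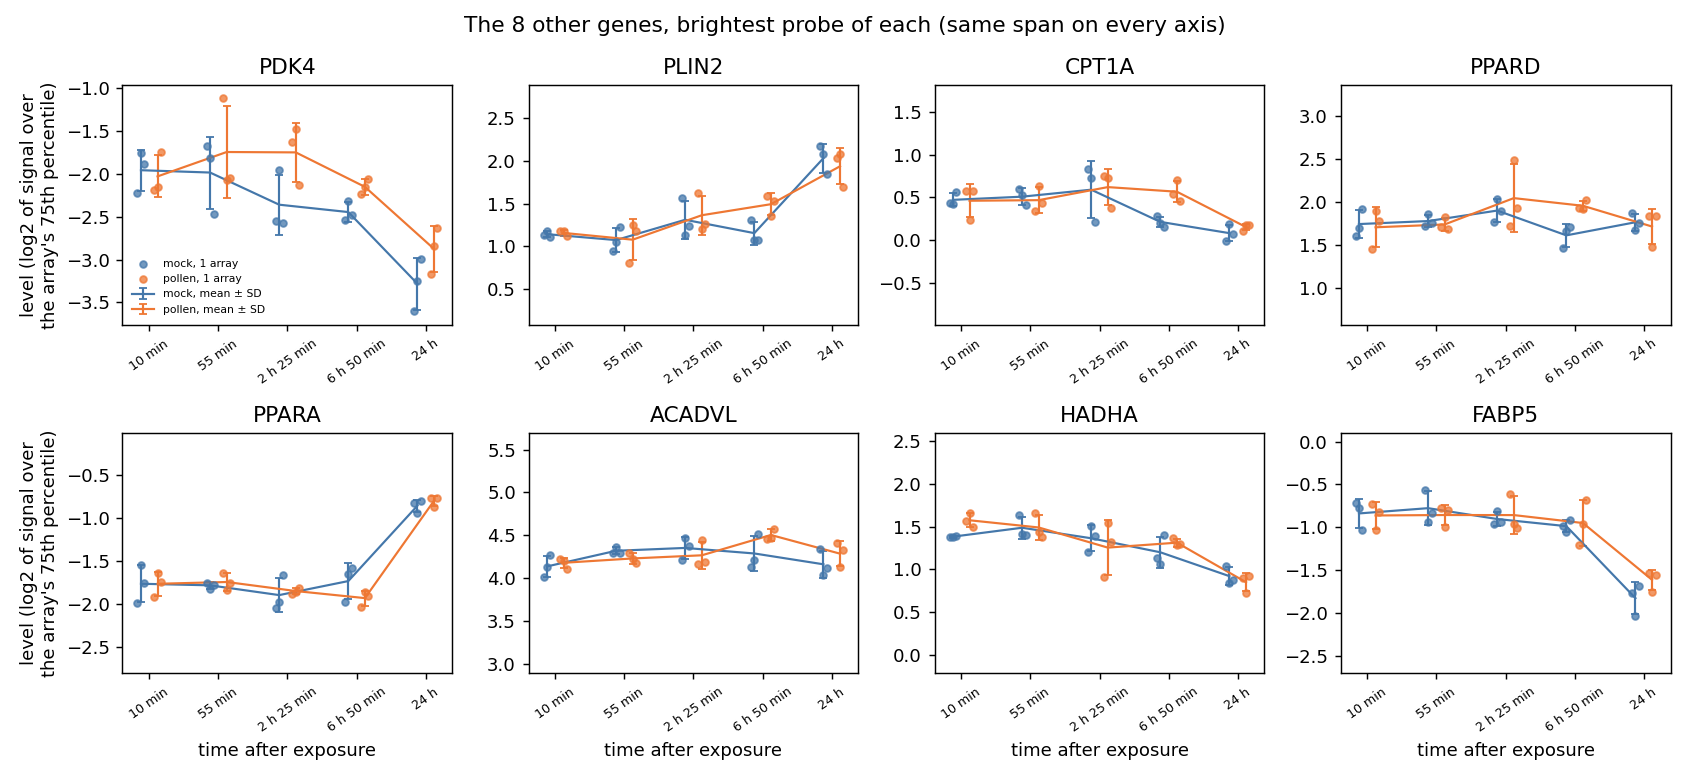
Levels of the brightest probe of the 8 other genes on the 30 arrays (y axes, log2 of signal over the array's 75th percentile, all panels with the same span) against time after exposure (x axes), mock and pollen in different colours, with lines through the means of 3 and bars of ± 1 SD. PPARA and PLIN2 were higher and PDK4 and FABP5 lower at 24 h in both exposures, and PPARD and ACADVL kept within a range of 0.44 and 0.37 of their means.

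The receptors were present in these cells. PPARD (hg19 chr6:35395809-35395868) read 1.46, 1.66 and 1.71 in mock at 6h50min and 1.93, 1.92 and 2.02 in pollen, with no overlap and a difference of 0.35 ± 0.15 (adjusted p = 0.606). With normexp and quantile normalization that difference was 0.62 (adjusted p = 0.116), and 0.61 in the values normalized by the authors (adjusted p = 0.102). At 2h25min PPARD differed by 0.15, and 1 pollen array at 2.49 stood above the other two at 1.72 and 1.93. Its dimmer probe (hg19 chr6:35391843-35391902) differed by 0.31 at 2h25min and 0.29 at 6h50min, with overlapping groups at both times.

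PPARA (hg19 chr22:46639178-46639237) went the other way at 6h50min, from −1.97, −1.65 and −1.58 in mock to −2.03, −1.86 and −1.91 in pollen. The difference was −0.20 ± 0.12 (adjusted p = 0.804) and the groups overlapped. At the other 4 times it was within −0.00 and 0.06. PPARG, the receptor not among the 9 genes, was well above background on all 30 arrays and differed by −0.09 to 0.13. FABP5 was read by 3 probes, and its brightest differed by −0.08 to 0.21 with overlapping groups at each time. A dimmer probe that carries the name FABP5 is placed on chromosome 7 (hg19 chr7:152139847-152139906), and the others on chromosome 8, so it may not read the same gene. It had separate groups at 24 h (−3.07, −3.34 and −3.11 in mock, −2.73, −2.94 and −2.65 in pollen), a difference of 0.40 that did not pass (adjusted p = 1).

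Whether the effect of pollen changed from one time to the next was tested by the interaction of exposure and time, and 0 of the 8 genes were called from 10 to 55 min, from 55 min to 2h25min, from 2h25min to 6h50min or from 6h50min to 24 h. The share of all probes called was 0%, 0%, 0.00312% and 0%. At an unadjusted p under 0.05 the counts were 0, 0, 0 and 1 of 8. For CPT1A the change in effect from 2h25min to 6h50min was 0.32 ± 0.19 (adjusted p = 0.965), and for PPARD 0.20 ± 0.22. A gene that differs at 6h50min and not at 2h25min by overlap is therefore not shown to have changed its response between these times.

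Several of the 8 genes differed between times. Between 10 and 55 min, 0 of the 8 genes were called in mock (0.187% of all probes were) and 0 in pollen (0.841%). Between 55 min and 2h25min, 0 were called in mock (0.0156%) and 0 in pollen (0.202%). The unadjusted count was 0 of 8 in each of these 4 comparisons. In mock the 8 genes moved by −0.07 to 0.18 from 10 to 55 min, where ANGPTL4 moved by 1.25.

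Between 2h25min and 6h50min, 1 of the 8 was called in mock, against 32.4% of all probes, and 0 in pollen, against 31%. The gene was CPT1A, which was 0.38 lower at 6h50min in mock (adjusted p = 0.0377), with overlapping arrays. It lost the call in 5 of the 6 fits that each left out an array of those groups, all but the one without replicate 3 of 2h25min (−0.25 to −0.41, adjusted p = 0.0596 to 0.181). Between 6h50min and 24 h, 4 of the 8 were called in mock, against 40.5% of all probes, and 6 in pollen, against 36.2%. The median of all probes moved by −0.15 and 0.14 in mock and by −0.11 and 0.11 in pollen at these 2 steps. They compare the slide of 6h50min with others, so slide and time cannot be told apart.

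The comparison of 24 h with 2h25min, added after the data were seen because 1 slide holds arrays of both times, called 6 of the 8 genes in mock, against 27.4% of all probes, and 6 in pollen, against 23%. They were the same genes in both exposures. Higher at 24 h were PLIN2 and PPARA, and lower were PDK4, CPT1A, HADHA and FABP5, while PPARD and ACADVL did not pass. The epithelial markers also differed between these times, with a summed linear level of 130.2 to 172.3 at 24 h and 197.6 to 310.4 at the earlier times, and the part of such a general change in the results was not tested.

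PPARA rose by 1.04 in mock (adjusted p = 1.14e-06) and by 1.05 in pollen (adjusted p = 2.1e-06). All 6 arrays of 24 h lay between −0.94 and −0.76, and no array of an earlier time was above −1.55. On the slide shared by both times the step was 0.82 in mock and 1.02 in pollen. The dimmer probe of PPARA (hg19 chr22:46615754-46615813) did not move, with −0.01 in mock and 0.06 in pollen, so the rise held for 1 of 2 probes.

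PLIN2 rose by 0.72 in mock (adjusted p = 5.26e-04) and by 0.57 in pollen (adjusted p = 0.00502). Its arrays of 24 h read 2.17, 2.08 and 1.85 in mock and 2.03, 2.08 and 1.69 in pollen, above all arrays of 2h25min. The dimmer probe did not follow, with 0.11 in mock and −0.14 in pollen. From 6h50min to 24 h in pollen the probes even went opposite ways, with 0.44 on the brighter one (adjusted p = 0.0182) and −1.20 on the dimmer one (adjusted p = 0.00926). Without replicate 2 of 6h50min, or replicate 1 or 2 of 24 h, the brighter probe did not pass (0.37 to 0.39, adjusted p = 0.0656 to 0.0857).

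PDK4 fell by 0.92 in mock (adjusted p = 0.00801) and by 1.13 in pollen (adjusted p = 0.00225) from 2h25min to 24 h. ANGPTL4 and PDK4 were thus both at their lowest at 24 h in mock. FABP5 fell by 0.92 (adjusted p = 3.69e-05) and by 0.76 (adjusted p = 4.25e-04). The other probes of that name, including that placed on chromosome 7, fell too, by 0.69 to 1.08. HADHA fell by 0.44 in mock (adjusted p = 0.0117) and by 0.40 in pollen (adjusted p = 0.0247). CPT1A fell by 0.51 in mock (adjusted p = 0.00687) and by 0.47 in pollen (adjusted p = 0.0149), but with the slide as a block these became −0.20 and −0.16 and did not pass (adjusted p = 0.291 and 0.463). PDK4 in mock and HADHA in pollen lost their calls with that block too (adjusted p = 0.0732 and 0.0561). HADHA in pollen passed in only 4 of 10 alternative settings (adjusted p = 0.00262 to 0.291).

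These falls rested in part on single arrays. PDK4 in mock did not pass without replicate 2 of 2h25min (−0.72, adjusted p = 0.0656) or replicate 1 of 24 h (−0.76, adjusted p = 0.0547). CPT1A did not pass in mock without replicate 1 of 2h25min (adjusted p = 0.054), nor in pollen without replicate 1 or 2 of 2h25min or replicate 1 of 24 h (adjusted p = 0.056 to 0.0675). HADHA did not pass in mock without replicate 2 of 2h25min (adjusted p = 0.0702), nor in pollen without replicate 2 or 3 of 2h25min or replicate 2 of 24 h (−0.26 to −0.37, adjusted p = 0.0763 to 0.179). PLIN2, PPARA and FABP5 passed in all 30 such fits in both exposures.

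A wider list of 47 PPAR target genes was drawn from textbook knowledge. Apart from ANGPTL4, 38 of them were tested, and 0 were called between pollen and mock at any time. At an unadjusted p under 0.05 the counts were 1, 1, 2, 2 and 2, against 1.83%, 5.08%, 2.98%, 7.44% and 3.61% of all probes. Their median difference was 0.01, 0.01, −0.01, 0.02 and 0.07 at the 5 times in order, where that of all genes lay between −0.03 and 0.00. Of the 38, 19, 21, 17, 21 and 26 stood above zero, against 50.8%, 48.9%, 41.5%, 48.9% and 49.4% of all genes. At 2h25min and 6h50min the genes of the list with the largest value among the bright probes, next to ANGPTL4, were G0S2, an inhibitor of the lipase of lipid droplets, at 0.61 ± 0.28 at 2h25min and 0.48 at 6h50min, and PDK4. Neither passed (adjusted p = 1 and 0.803 for G0S2). At 55 min UCP3, a mitochondrial carrier, stood at −0.83 ± 0.37 (adjusted p = 0.92).

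**Figure D4:**
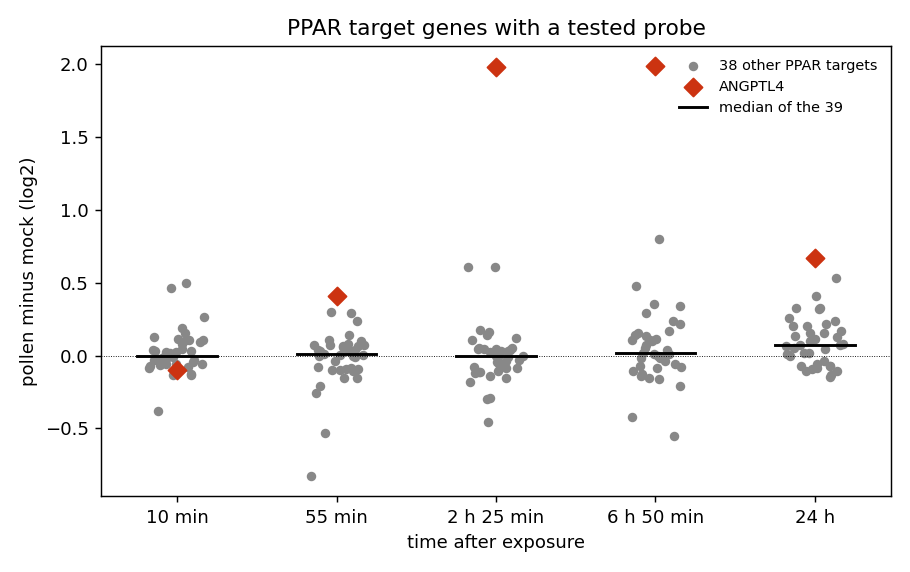
Difference between pollen and mock (y axis, log2) of the tested genes of the list of PPAR targets at the 5 times (x axis), with ANGPTL4 as a diamond the 38 others as points and the median of all 39 as a black line. The other genes stay between −0.83 and 0.80, and ANGPTL4 stands clear of them at 2h25min and 6h50min, the times by which it was chosen.

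Some classical targets were dim in these cells. FABP4, the fatty acid carrier of fat cells, was above background on 0 arrays. CD36, a fatty acid receptor of the cell surface, was above background on 14 and differed by −0.55 at 6h50min (adjusted p = 0.856). Of the relatives of ANGPTL4, ANGPTL2 differed by −0.05 at 2h25min and −0.01 at 6h50min, and ANGPTL6 by −0.30 and 0.34 (adjusted p = 1 and 0.919).

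The lists of fatty acid handling held no call between pollen and mock either, where at most 0.0436% of all probes were called at any time. This was 0 of 18 receptors and partners of the PPARs, 0 of 22 genes of mitochondrial and 0 of 13 of peroxisomal fatty acid oxidation, 0 of 15 of lipid droplets, 0 of 14 of fatty acid binding and uptake, and 0 of 8 that control pyruvate dehydrogenase. At 6h50min the counts at an unadjusted p under 0.05 were 3, 1, 1, 2, 0 and 0, against 7.44% of all probes. Among bright probes of these lists at 2h25min or 6h50min, CRAT, which makes carnitine esters in peroxisomes, stood at 0.64 at 6h50min (adjusted p = 0.482), ahead of G0S2 and PDK4 with 0.61 each at 2h25min. Further values at 2h25min were 0.40 for SCP2, a lipid carrier of peroxisomes (adjusted p = 1), 0.40 for the corepressor NRIP1 (adjusted p = 1), and −0.40 for ACADS, a dehydrogenase of short fatty acids (adjusted p = 1).

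Genes of the other inputs of ANGPTL4 were read in the same way, beside at most 0.0436% of all probes called at any time. Of 14 hypoxia-inducible genes 0 were called, with ANKRD37 at −0.44 (adjusted p = 0.507) and VEGFA at 0.20 at 2h25min. Of 10 glucocorticoid-induced genes 0 were called, with ERRFI1 at 0.62 at 2h25min (adjusted p = 0.117) and MT2A at 0.91 at 6h50min (adjusted p = 0.396). At 10 min, 55 min, 2h25min, 6h50min and 24 h, 3, 7, 9, 7 and 4 of these 10 stood above zero. Of the 14 hypoxia-inducible genes 7, 10, 9, 6 and 11 did, and of 7 genes induced by TGF-beta 0, 5, 7, 5 and 3. The shares of all genes were 50.8%, 48.9%, 41.5%, 48.9% and 49.4%. Of 7 genes induced by TGF-beta, CCN2, a matrix protein that YAP also induces, was higher after pollen at 55 min, by 0.81 (adjusted p = 0.0281), and at 2h25min, by 1.44 (adjusted p = 1.11e-06), and the other 6 did not pass. At 55 min it was the only probe called, and some settings called no probe there. These were the replicate number as a block, the slide as a block, arrays scaled over their own probes, and only the arrays compared. The last of these called no probe at 2h25min either. At 6h50min CCN2 differed by 0.12.

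Over time more of the PPAR targets fell than rose. From 2h25min to 24 h, 2 of the 38 targets besides ANGPTL4 rose and 18 fell in mock, and 5 rose and 17 fell in pollen. Of all 32099 probes, 3999 rose and 4788 fell in mock (27.4% called), and 3604 rose and 3787 fell in pollen (23% called). The median of the 38 was −0.35 in mock and −0.32 in pollen, against −0.08 and −0.03 over all genes. Among those that fell were ACAA1, the thiolase of peroxisomes, by 0.95 in mock (adjusted p = 7.3e-07), ACAA2, the last enzyme of mitochondrial oxidation, by 1.11 (adjusted p = 4.67e-06), and ACSL5, which activates fatty acids, by 1.40 (adjusted p = 2.94e-04). Of 22 genes of mitochondrial fatty acid oxidation 1 rose and 11 fell in mock, and 1 rose and 10 fell in pollen, beside the same 27.4% and 23% of all probes. VLDLR, a lipoprotein receptor, rose by 0.42 in mock (adjusted p = 0.0101). ACAA1, ACAA2, ACSL5 and VLDLR were picked after their values were seen.

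To ask which genes followed ANGPTL4 over all 10 groups, the means of every tested gene were correlated with those of ANGPTL4. This is a description with no test, over 10 points that share arrays, slides and the times of the early rise. Over 24501 genes the median r was 0.01, and 1% of genes lay above 0.718. PPARD had r = 0.819 and CPT1A r = 0.773, which were exceeded by 0.318% and 0.522% of genes. PDK4 followed with 0.658 (exceeded by 2%), FABP5 with 0.533, ACADVL with 0.498 and HADHA with 0.335, while PLIN2 had −0.299 and PPARA −0.572. ANGPTL4 was chosen by its own differences between pollen and mock, and PPARD had been singled out earlier from these same arrays. Part of the r of PPARD may come from these choices, so its rank among unselected genes is no independent evidence. Each r is that of the brightest probe of the gene and may not hold for its other probes. The dimmer probes of PLIN2 and PPARA did not share the rise of the brighter ones from 2h25min to 24 h.

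The size of the movement did not match the shape. The means of PPARD spanned 0.44 and those of CPT1A 0.54 on the log2 scale, against 3.92 for ANGPTL4. With the arrays scaled by the 75th percentile of all their own probes, r was 0.418 for PPARD and 0.58 for CPT1A. Within mock alone HADHA reached 0.817, and within pollen alone 0.117, over 5 points each.

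The 10 genes most like ANGPTL4 were SERPINB5 (r = 0.943), IL1A (0.931), RIPK4 (0.928), IRF2BP2 (0.927), SH3RF3-AS1 (0.921), CCNJL (0.917), EREG (0.917), MAP2K3 (0.915), ZFP42 (0.913) and MYO6 (0.908). No gene of the list of PPAR targets was among them. The 38 tested genes of that list are so few among 24501 that their absence from these 10 carries no information. EREG, a ligand of the EGF receptor, differed between pollen and mock by 1.08 ± 0.20 at 2h25min, MAP2K3, a kinase upstream of p38, by 0.87 ± 0.16, and the antisense transcript SH3RF3-AS1 by 0.88 ± 0.16, each at an adjusted p of 0.0579. IL1A, an alarm cytokine of epithelia, differed by 0.88 at 2h25min and 0.68 at 6h50min (adjusted p = 1 and 0.703). None of the 10 was called between pollen and mock in this fit, which did not use the replicate numbers. The paper lists EREG and MAP2K3 among its up-regulated genes at 2h25min. They were picked by likeness to ANGPTL4, which was itself chosen by its differences at 2h25min and 6h50min. Their differences at these times are therefore a description and no independent result.

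Genes listed as markers of other cell types, in these cultures of BEAS-2B alone, and array quality were read beside these results. The leukocyte markers had a summed linear level of 0.534 to 0.587 in mock and 0.777 to 0.928 in pollen at 6h50min. Most of this sum came from CD14, which differed by 0.61 (adjusted p = 0.208). Of these 4 markers PTPRC and CD14 were above background on 30 arrays, CD3E on 17 and MS4A1 on 0. The part of this in the results was not tested. Across the series 44.7% to 62.6% of probes were well above background per array, and the 75th percentile ran from 578.4 to 2111 units and was lowest at 6h50min. A dim area covered 1364, 1009 and 12 tested probes on the 3 mock arrays of 6h50min, and leaving those spots out changed no value of the 9 genes.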

How the data were processed

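RNA of BEAS-2B cells was hybridised to 30 one-colour Agilent arrays. Per the labels, the authors extracted signals with Agilent Feature Extraction (11.0.1.1, from the submitters' processing notes) and probes carry hg19 positions. The deposited scanner files hold background-subtracted intensity values (gProcessedSignal), and the deposited value table holds log2 values that the authors normalized. In it 23 of 30 columns matched their own array best, so it served as an alternative only.

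Unflagged spots of a probe were averaged, divided by the 75th percentile of the array over the 33873 probes common to both array designs used, and log2 transformed. A probe was tested if some group had it well above background on each of its 3 arrays, which 32099 of 58201 had. One array (pollen, 55 min, replicate 1) was of the other design and lacks the probes not on it. limma (3.58.1 in R 4.3.3) fitted 10 group means with 20 residual and 2.35 prior degrees of freedom, with Benjamini-Hochberg adjustment per contrast. Scripts were tested on simulated data. A gene with several probes is given by its brightest.

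Samples were grouped by GEO's labels. Per the study's methods, exposures were repeated independently on separate days, each run with its own mock control, but the labels do not tie array numbers to days. The number of arrays limits precision. Slides 1 to 5 were read from the file headers. Same-numbered mock and pollen arrays deviated together (r over 23888 probes of 0.22 to 0.516) at 10 min, 2h25min and 24 h, and not for every number at 55 min and 6h50min. 12 alternative settings and 30 fits that each left out 1 array were run. Promoter windows came from RefSeq.

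The genes named were all 9, the 10 most like ANGPTL4, list genes called or with the 3 largest values among bright probes at 2h25min or 6h50min, and PPARG, FABP4, CD36 and the ANGPTL genes, of which some are not reported here. The 9 genes and the 17 gene lists were chosen with earlier results of these data known.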

Additional observations from a re-analysis of the deposited data

Results flagged for a closer look

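In 5 cases all 3 pollen arrays lay on one side of the mock mean at one time and on the other side at another time. The change in the difference between pollen and mock was −0.25 for PPARA from 2h25min to 6h50min (limma adjusted p of the interaction = 0.985) and −0.18 for HADHA from 6h50min to 24 h (adjusted p = 1). It was 0.31 for ACADVL from 55 min to 6h50min, −0.26 for HADHA from 10 min to 24 h and 0.29 for FABP5 from 55 min to 24 h, and these 3 differences were not tested.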

How the results depend on the processing

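The difference of ANGPTL4 between pollen and mock ran from 1.76 to 2.01 at 2h25min and from 1.66 to 1.99 at 6h50min over the 12 settings, and from 1.59 to 2.28 and from 1.90 to 2.14 with each array left out. At 6h50min it was 1.67 with normexp and quantile normalization, 1.66 in the deposited log2 values and 1.67 with the replicate block added. At 55 min it was −0.00524 with the percentile over each array's own probes, which moved the median of all probes to −0.37, and at 10 min it ran from −0.41 to 0.15 with arrays left out. The step of ANGPTL4 in mock from 55 min to 2h25min was −0.20 with array weights and ran from −0.17 to 0.18 with arrays left out. The dimmer probe of PLIN2 gave −0.21 in mock and −1.20 in pollen from 6h50min to 24 h and −0.14 in pollen from 2h25min to 24 h, and the dimmer probe of PPARA gave −0.00861 in mock from 2h25min to 24 h.

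Of the 8 other genes, 3 were called between pollen and mock at 6h50min with normexp, quantile normalization and the replicate block, when 1185 of 32099 probes were called. Between 2h25min and 6h50min the count of 1 in mock became 0 with the own-probe percentile, no filter, array weights or only the arrays compared, 3 with normexp and quantile normalization and in the deposited table, 2 with any probe counted, and 0 to 1 with arrays left out. The count of 0 in pollen became 1 with array weights, 2 with any probe, and 0 to 1 with arrays left out. The count of 6 in pollen from 6h50min to 24 h became 3 with the own-probe percentile and 3 to 6 with arrays left out (3 without pollen 6h50min replicate 2 or pollen 24 h replicate 1). From 2h25min to 24 h the 6 became 3 in mock and 3 in pollen with the own-probe percentile, and 3 in pollen with only the arrays compared. Calls over all 32099 probes changed with the setting too. With the own-probe percentile they went from 10415 to 4075 in mock between 2h25min and 6h50min. In pollen from 6h50min to 24 h they went from 11622 to 5308 with that percentile. From 2h25min to 24 h it took them from 8787 to 3711 in mock and from 7391 to 2516 in pollen. Array weights raised those between 2h25min and 6h50min to 12393 in mock and 13870 in pollen. The causes were not tested.

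With the replicate block, calls over all probes went from 11 to 44 at 2h25min, 14 to 135 at 6h50min, 1 to 6 at 24 h and 1 to 0 at 55 min, with 0 at 10 min, and 0 of the 8 genes were called (PDK4 at 2h25min 0.61, adjusted p = 0.291, PLIN2 at 6h50min 0.34, adjusted p = 0.0753). Array weights gave 231, 7, 530 and 107 calls at 55 min, 2h25min, 6h50min and 24 h, the deposited log2 values 383 and normexp with quantile normalization 304 at 6h50min, and only the arrays compared 0 at each time. With 3 arrays per group, differences of under about 0.3 were within the 95% interval of most of these genes.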
